A study of Mus musculus with 4 samples.

Results

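The colony-stimulating factors and their receptors were followed through knockdown of Mettl3 in the mouse macrophage cell line RAW264.7. The set was chosen by name, with earlier results of these data known, and holds 8 of the 14435 genes in the expression table. They are the ligand genes Csf1, Csf2 and Csf3 and the receptor genes Csf1r, Csf2ra, Csf2rb, Csf2rb2 and Csf3r. The study compared 2 libraries from cells transfected with a nonspecific shRNA (control) and 2 from cells transfected with an shRNA against Mettl3 (shMettl3), the catalytic subunit of the enzyme that writes N6-methyladenosine (m6A) on mRNA. All 4 libraries came from cells treated with Escherichia coli lipopolysaccharide (LPS) for 12 h, so the controls carry LPS too and no library shows the level before LPS. Whether the cells were pools or clones, and whether the 2 libraries of a group were separate cultures, is not given in the sources used here. P-values therefore measure the spread between these libraries only, which may be technical, and the loss of Mettl3 cannot be told apart from any other difference between the transfected populations.

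CSF1 (M-CSF) binds the receptor tyrosine kinase encoded by Csf1r and keeps macrophages alive, growing and differentiated. GM-CSF, the product of Csf2, binds a private alpha chain (Csf2ra), and the complex then recruits the common beta chain (Csf2rb), which carries the kinase JAK2 and activates STAT5. Mice have a further beta chain gene, Csf2rb2, whose product serves interleukin-3. G-CSF, the product of Csf3, acts through the single-chain receptor encoded by Csf3r and is known as the growth factor of neutrophils. Activated macrophages can secrete all of these ligands, and LPS is a classical inducer of Csf2 and Csf3.

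Of the 8 genes, 1 rose in the shMettl3 libraries, 6 fell and 1 was not called. All 5 receptor genes fell, while the 3 ligand genes went separate ways: Csf1 rose, Csf2 fell and Csf3 was not called. All 8 genes passed the filter on low counts. Calls required a Benjamini-Hochberg adjusted p under 0.05 over 11035 tested genes, from the quasi-likelihood test of edgeR with n = 2 libraries a group. Calls were common in this comparison: 22.3% of tested genes fell and 21.4% rose, 43.7% in all. The counts of the 8 genes stand beside that background. The 7 called genes were also those whose groups did not overlap, as was so for 73.4% of tested genes (37.1% higher and 36.3% lower after knockdown). When the test was set against a 1.5-fold change, which called 8.63% of tested genes (3.76% higher and 4.87% lower), Csf1 was called as higher and Csf2, Csf1r, Csf2rb and Csf3r as lower. The median log2 fold change (shMettl3 over control) of the 8 genes was -0.62, against 0.01 over all tested genes.

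Total estimated counts lay between 16342313 and 17193639 a library. Mettl3 had 30.9 and 29.9 CPM in the controls (CPM is the count scaled to a common library size, here with TMM factors) and 11.5 and 11.2 CPM in the shMettl3 libraries, a log2 fold change of -1.42 (SE 0.10). The label of shMettl3 replicate 2 names METTL4 in one field. Mettl4 stood at 26.4 and 24.3 CPM in the controls against 24.4 and 24.8 CPM, and was not called. The direction of change over all genes depends on the scaling. Of the called genes 48.9% rose with TMM, 64.1% with library size alone, 63.2% with deposited FPKM and 70.1% with deposited TPM, as the median log2 fold change over tested genes moved from 0.01 to 0.11, 0.10 and 0.15. Changes below are on the TMM scale, and the directions given for the 7 called genes of the set did not turn under any of these scalings.

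Promoter sequence is shown for the ligand genes that moved in opposite directions. The 250 bases before the annotated start were taken from RefSeq on GRCm38.p6, a later build than the mm9 named in the submitters' processing notes. The table matched 5 of the 8 genes. Capitals in Csf1 mark GGGA followed by 4 bases of any kind and CC, on either strand, a form of the motif of NF-kB, the main transcription factor activated by LPS. Capitals in Csf2 mark TTNNGCAA, on either strand, a form of the motif of the C/EBP factors of myeloid cells. The sequences read 5′ to 3′ on the minus strand, Csf1 at chr3:107760470-107760719 and Csf2 at chr11:54249900-54250149.
Csf1: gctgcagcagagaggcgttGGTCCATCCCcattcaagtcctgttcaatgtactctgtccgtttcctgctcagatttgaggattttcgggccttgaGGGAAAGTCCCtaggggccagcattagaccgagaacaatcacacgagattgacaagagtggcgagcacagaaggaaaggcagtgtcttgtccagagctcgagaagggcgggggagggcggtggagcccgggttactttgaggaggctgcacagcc
Csf2: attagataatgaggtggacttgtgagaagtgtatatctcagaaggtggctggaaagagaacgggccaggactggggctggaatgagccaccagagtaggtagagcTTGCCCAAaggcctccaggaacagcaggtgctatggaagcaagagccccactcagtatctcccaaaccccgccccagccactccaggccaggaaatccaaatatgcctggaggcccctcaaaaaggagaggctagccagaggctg
The Csf1 window held 3 matches to the NF-kB form, of which the pair at -155 and -154 from the gene start overlap on opposite strands and the other lies at -231. At least 1 match was present in 17.6% of 32851 promoter windows of this length and at least 3 in 0.356%. The Csf2 window held 0 matches to the NF-kB form and 1 to TTNNGCAA, at -145, which 9.56% of windows hold. Of the other promoters matched, Csf3r, which fell, held 1 match to the NF-kB form, Csf2ra and Csf2rb2 held 0, and none of these 3 or Csf1 held TTNNGCAA. These counts hold for the printed windows only. The 0 for Csf2 does not show that the gene lacks NF-kB sites, as bases outside the window were not searched. Each window rests on 1 annotated start, and the start used in these cells was not measured, so a promoter at another start is not covered. A match is a run of letters and not a bound site, and binding was not measured.

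Csf1 was the ligand gene that rose. Its estimated counts were 282 and 205 in the controls against 726 and 594 after knockdown, or 17.0 and 12.4 against 43.2 and 34.1 CPM. Each shMettl3 library was above each control. The log2 fold change was 1.40 (SE 0.18), a 2.63-fold rise (adjusted p = 0.00109, edgeR). It lay between 1.18 and 1.64 when 1 library was left out, and stayed called each time. Per transcript length, Csf1 stood at 8.13 and 5.61 TPM, the deposited unit that divides by transcript length, in the controls and 19.5 and 15.9 TPM after knockdown. Its receptor moved the other way, as described below, so that Csf1r TPM was 26.7 and 42.5 times that of Csf1 in the controls and 6.41 and 7.58 times in the shMettl3 libraries. Il34, the gene of the other CSF1R ligand, was counted 8 and 5 times in the controls and 2 and 4 times after knockdown, below the filter.

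Csf2, the GM-CSF gene, fell from low levels. Its counts were 50 and 106 in the controls against 17 and 11 after knockdown, or 3.01 and 6.39 CPM against 1.01 and 0.632 CPM. Both shMettl3 libraries were below both controls, yet the controls themselves differed by 2.12-fold, and control replicate 2 was the higher. The log2 fold change was -2.51 (SE 0.47, adjusted p = 0.00492, edgeR), a 5.69-fold lower level. Without control replicate 2 the log2 fold change was -1.87 and without control replicate 1 it was -2.96. Without shMettl3 replicate 1 it was -2.88 and without shMettl3 replicate 2 it was -2.21, with a weaker call than without a control. A larger pseudocount (log2 of FPKM plus 1) gave -1.60 in limma, and Csf2 was called in each of these fits.

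Csf3, the G-CSF gene, was by far the most abundant of the 8 genes and was not called. It stood at 832 and 1085 TPM in the controls and 1148 and 1043 TPM after knockdown, which placed it 171st of 14435 genes by mean TPM in the controls and 158th in the knockdown. Its counts were 11050 and 14838 in the controls against 14359 and 13357. By counts and by CPM the shMettl3 libraries lay between the 2 controls, while by TPM shMettl3 replicate 1 was above both. The log2 fold change of 0.06 (SE 0.15, adjusted p = 0.796, edgeR) was smaller than the spread between the controls. It turned to -0.15 without control replicate 1 and -0.02 without shMettl3 replicate 1. Without control replicate 2 it was 0.28 and was called (adjusted p = 0.0103), a fit in which the lone control is assumed to vary like the shMettl3 libraries.

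**Figure D1:**
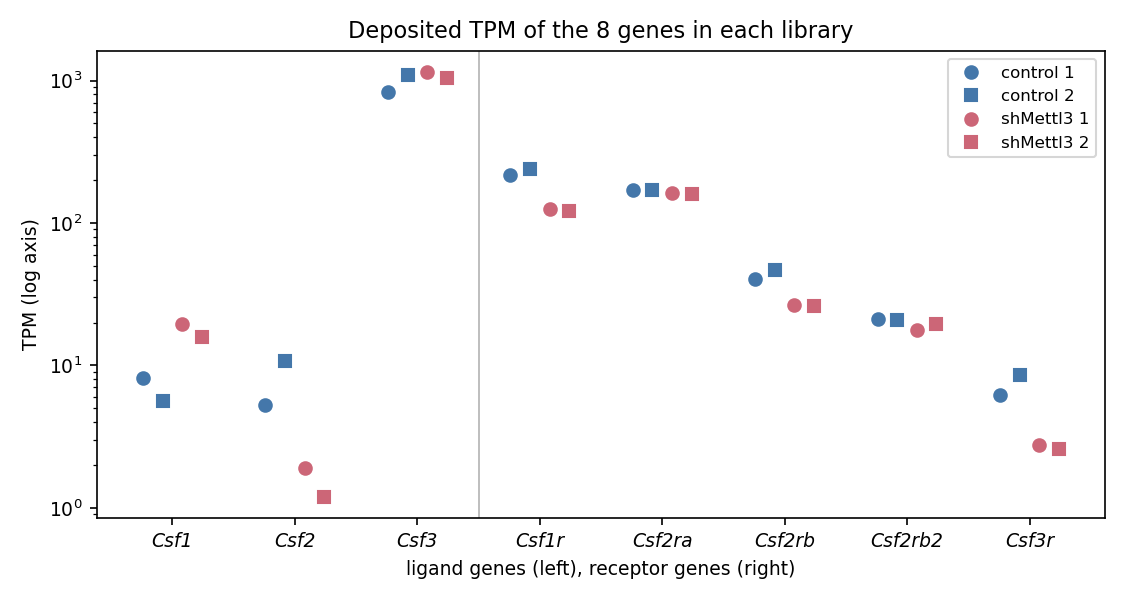
Deposited TPM (log axis) of the 3 ligand genes and 5 receptor genes in each of the 4 libraries; points are single libraries, circles replicate 1 and squares replicate 2. Csf3 lies between 832 and 1148 TPM with overlapping groups, Csf1 is higher in both shMettl3 libraries, and Csf2 and all 5 receptor genes are lower in them.

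Csf2 and Csf3 mRNAs are textbook cases of short-lived cytokine messages, which proteins such as tristetraprolin (Zfp36) bind at repeats of ATTTA in the 3′ UTR. Both carry that feature in the GENCODE M21 transcripts (GRCm38), although only Csf2 was called. Csf2 has 9 copies of ATTTA in a 3′ UTR of 317 bases, a number reached by 6.8% of 10820 tested genes with a coding transcript. Csf3 has 6 copies in 669 bases, reached by 14.8%. The 30 bases with the most copies in each are shown, with ATTTA in capitals.
Csf2: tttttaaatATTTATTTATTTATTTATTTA
Csf3: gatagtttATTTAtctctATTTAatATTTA
Csf1 has 4 copies in a longer 3′ UTR of 2111 bases and Csf1r has 3 in 1669 bases, while Csf2ra, Csf2rb, Csf2rb2 and Csf3r have 0. The letters GGACT, the best-known core of m6A sites, occurred in all 8 transcripts, from 1 copy in Csf2 and in Csf3 to 8 in Csf1r. Per kilobase this was 1.44 for Csf1, 1.25 for Csf2, 0.708 for Csf3, 1.7 for Csf1r, 1.62 for Csf2ra, 1.43 for Csf2rb, 1.48 for Csf2rb2 and 0.862 for Csf3r, against a median of 1.05 over tested genes. Csf3 and the called Csf3r lay below that median and the other 6 genes above it. The quartiles over tested genes were 0.63 and 1.53, and of the 8 genes only Csf1r and Csf2ra lay outside them. Methylation of these transcripts was not measured.

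Csf1r, the CSF1 receptor gene, fell alike in both shMettl3 libraries. Counts were 8348 and 9427 in the controls and 4458 and 4468 after knockdown, or 502 and 568 against 265 and 257 CPM. The groups were far apart, and the shMettl3 libraries agreed to within 1.03-fold. The log2 fold change was -1.04 (SE 0.08, adjusted p = 2.73e-06, edgeR), a 2.05-fold lower level. Leaving out 1 library gave values between -1.13 and -0.95. In the controls Csf1r had the highest TPM of the receptor genes (217 and 238), above Csf2ra (169 and 171). In the shMettl3 libraries the order was turned, with Csf1r at 125 and 121 TPM and Csf2ra at 162 and 160 TPM.

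The chains of the GM-CSF receptor fell unequally. Csf2ra, the GM-CSF binding chain, had 194 and 202 CPM in the controls against 169 and 167 CPM, a log2 fold change of -0.24 (SE 0.07, adjusted p = 0.0176, edgeR). The groups did not overlap, but the difference was small and its call depended on the scaling and on single libraries. It was not called with library size alone (-0.14, adjusted p = 0.123), with TPM (-0.08, adjusted p = 0.284), without shMettl3 replicate 1 (adjusted p = 0.155) or without shMettl3 replicate 2 (adjusted p = 0.182). Csf2rb, the common beta chain that carries the signal of GM-CSF, interleukin-3 and interleukin-5, had 116 and 141 CPM against 66.9 and 68.8 CPM. Each shMettl3 library was below each control. The log2 fold change was -0.92 (SE 0.09, adjusted p = 4.29e-05, edgeR), a 1.9-fold lower level that held its call in every alternative. Csf2rb2 had 63.3 and 64.1 CPM against 48.6 and 52.9 CPM, a log2 fold change of -0.33 (SE 0.08, adjusted p = 0.00491, edgeR). It was not called with FPKM (-0.22, adjusted p = 0.0916), with TPM (-0.17, adjusted p = 0.166) or without shMettl3 replicate 1 (-0.27, adjusted p = 0.0958).

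The beta chain genes are near copies, and the reads of 50 bases could be divided between them. The first 120 coding bases are printed from the GENCODE M21 transcripts (GRCm38), with the positions that differ in capitals.
Csf2rb: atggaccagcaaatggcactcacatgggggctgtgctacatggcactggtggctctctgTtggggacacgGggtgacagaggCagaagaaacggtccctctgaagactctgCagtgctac
Csf2rb2: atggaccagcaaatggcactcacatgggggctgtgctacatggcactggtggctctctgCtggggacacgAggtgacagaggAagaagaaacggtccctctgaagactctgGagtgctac
Here 116 of 120 bases are the same. Of all windows of 50 bases, 18.4% in the Csf2rb transcript and 19.4% in the Csf2rb2 transcript also occur in the transcripts of another gene, in each case mostly the other beta chain. The estimated counts of both were not whole in any library (1926.58 and 2347.31 in the controls for Csf2rb, 1125.20 and 1196.66 after knockdown), so the split between them is uncertain. Summed into 1 row, the pair reached 2979 and 3410 counts in the controls against 1942 and 2117 after knockdown, and the sum fell with a log2 fold change of -0.70 (SE 0.08, adjusted p = 5.28e-05, edgeR). Csf2rb2 made up 35.3% and 31.2% of the summed counts in the controls against 42.1% and 43.5% after knockdown, groups that do not overlap. The difference in this share was not tested. Relative to the alpha chain, Csf2ra TPM was 2.76 and 2.53 times the summed beta chain TPM in the controls and 3.63 and 3.5 times after knockdown.

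Csf3r, the G-CSF receptor gene, fell the most of the 5 receptor genes in the fitted values. Its counts were 214 and 293 in the controls against 90 and 75 after knockdown, or 12.9 and 17.7 against 5.35 and 4.31 CPM. The groups were well apart. The log2 fold change was -1.66 (SE 0.19, adjusted p = 8.97e-05, edgeR), a 3.16-fold lower level, and lay between -1.88 and -1.42 with 1 library left out. In its transcript 11.2% of windows of 50 bases are shared with an overlapping annotation, though its counts were whole in all libraries. Since Csf3 was not called, the Csf3 TPM, already 133.3 and 127.4 times that of Csf3r in the controls, was 414.3 and 404.3 times it in the shMettl3 libraries.

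**Figure D2:**
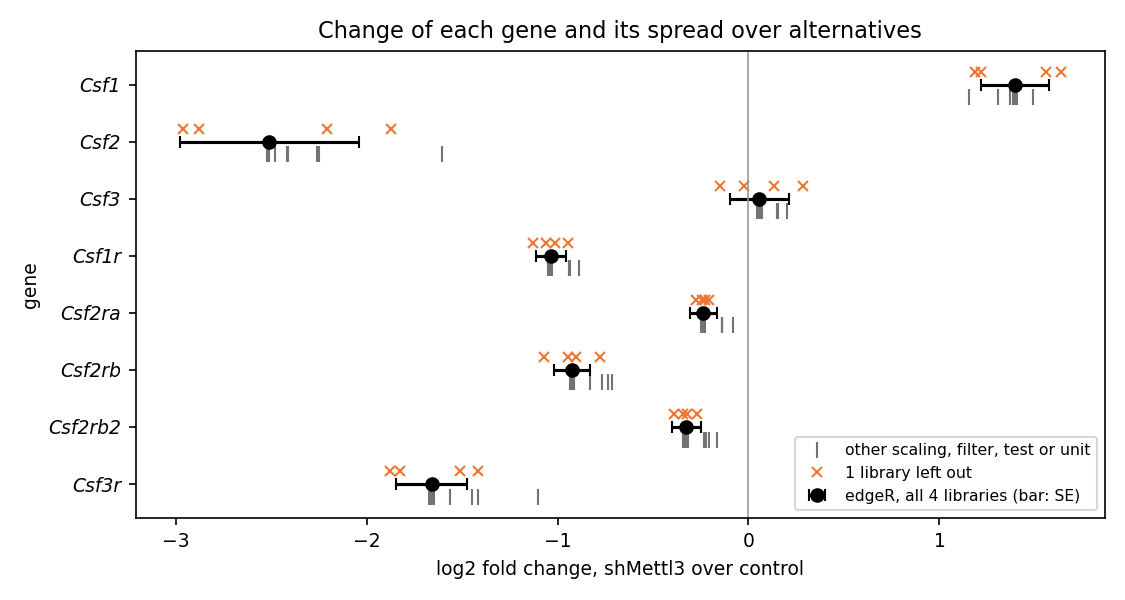
Log2 fold change (shMettl3 over control) of each of the 8 genes in edgeR with all 4 libraries (black, bar: SE), with 1 library left out (crosses) and with another scaling, filter, test or unit (ticks). Csf1 stays above 0 and Csf2, Csf1r, Csf2ra, Csf2rb, Csf2rb2 and Csf3r stay below 0 throughout, while Csf3 lies on both sides.

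In the controls the order of levels by mean TPM was Csf3 (959), Csf1r (228), Csf2ra (170), Csf2rb (43.5), Csf2rb2 (20.9), Csf2 (8.03), Csf3r (7.38) and Csf1 (6.87). The last 3 could not be ordered, because their library values overlap. After knockdown Csf1 (17.7 TPM) stood beside Csf2rb2 (18.7 TPM), with overlapping values, and Csf2 (1.54 TPM) was the lowest of the 8.

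Markers of the cell itself moved with these genes. RAW264.7 is a macrophage line, and all 9 macrophage markers listed had counts, but Mertk had at most 1 count. Their summed level was 13395 and 13694 CPM in the controls and 8418 and 8436 CPM after knockdown, and 6 of 8 tested markers fell while 0 rose (1 rose with library size alone, FPKM, TPM and without control replicate 1). Adgre1, which encodes F4/80, went from 246 to 71.0 CPM and Itgam, an integrin chain, from 480 to 218 CPM, whereas Spi1, which encodes PU.1, an activator of the Csf1r gene, had a log2 fold change of -0.06 that was not called and whose sign turned with library size, FPKM and TPM. Most of the summed level was Lyz2 (6056 and 5679 CPM in the controls, 3280 and 3131 after knockdown) and Cd14 (3724 and 4306 against 2791 and 2959). Fcgr3 was higher in both shMettl3 libraries (53.8 and 50.3 against 48.9 and 42.0 CPM) and was not called. Over all tested genes 22.3% fell and 21.4% rose. In bulk RNA, fewer cells of a kind and less RNA per cell cannot be told apart. Markers of other cells were at or near the floor. Of 8 fibroblast markers 5 had a count and these summed to 0.301 CPM in each control and 4.22 and 1.21 CPM after knockdown, 3 of 7 lymphocyte markers to at most 1.07 CPM and 4 of 7 neutrophil markers to between 5.72 and 6.54 CPM, nearly all of it S100a8. The 5 mast cell markers listed were not analysed here. Of 6 dendritic cell markers 4 had a count, and these summed to 24.7 and 32.3 CPM in the controls and 7.61 and 6.67 CPM after knockdown, most of it Itgax, which macrophages also express. The part of these markers in the receptor results was not tested.

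The relay and response genes downstream of the receptors are given next, from lists of the pathway's known parts. These lists, too, were chosen with earlier results of these data known, so their counts are a description only. Each list count below stands beside the shares over all tested genes, of which 22.3% fell and 21.4% rose. Differences of the lists from these shares were not tested. Among 18 genes that relay the GM-CSF and G-CSF signal, 6 fell and 2 rose, in all near the 43.7% called over all tested genes. JAK2, the kinase carried by the beta chain, had 191 and 152 CPM for its gene in the controls against 155 and 159 CPM. It was not called, except without control replicate 2 (-0.29, adjusted p = 0.00285, edgeR). Stat5a went from a mean of 28.0 to 23.4 CPM, and its log2 fold change of -0.26 lost its call under 8 alternatives, all 4 changes of unit or library size scaling among them. Stat5b (-0.05) and Stat3 (-0.12) were not called. Both turned sign with TPM, and Stat5b also with library size alone and FPKM. Tyk2, a Janus kinase, rose by 0.63 and Sos1, a Ras activator, by 0.24, the latter with an adjusted p of 0.044 (edgeR) that did not hold without shMettl3 replicate 1, without shMettl3 replicate 2 or without control replicate 2, nor in DESeq2, without the filter on low counts, with FPKM or with a replicate block. Without shMettl3 replicate 1, and likewise without replicate 2, 1 gene of this list rose and 4 fell, and 4 fell with library size alone, FPKM and TPM.

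More of the CSF1 receptor's relay fell. Of 19 genes 11 fell and 3 rose, with a median of -0.36, where 22.3% of all tested genes fell and 21.4% rose. With FPKM and with TPM 9 fell, and the median was -0.21 with TPM. In the test against a 1.5-fold change 3 fell and 0 rose, where 4.87% of all tested genes fell and 3.76% rose. The kinase gene Src went from 167 to 56.6 CPM (log2 fold change -1.56, SE 0.10). Pik3cd, a catalytic subunit of PI3-kinase, fell by 0.77. Fyn, a kinase of the Src family, rose by 0.74 and the adaptor gene Stap1 by 0.28. Stap1 lost its call without shMettl3 replicate 1, where 1 gene of the list rose and 9 fell.

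No tested inhibitor of these receptors was called as higher. Over all tested genes 22.3% fell and 21.4% rose. Among 15 tested inhibitors, ubiquitin ligases and receptor-cleaving enzymes, 8 fell and 0 rose, a difference from those shares that was not tested. The number that fell was 5 with library size alone, with FPKM, with TPM and without shMettl3 replicate 1, and 4 without shMettl3 replicate 2. Cish, a STAT5-induced inhibitor of cytokine receptors, was counted 63 and 134 times in the controls and 7 and 9 times after knockdown (log2 fold change -3.64, SE 0.53, adjusted p = 0.00186, edgeR). Leaving out control replicate 2 gave -3.00 and leaving out control replicate 1 gave -4.10. Leaving out shMettl3 replicate 1 gave -3.50 and leaving out shMettl3 replicate 2 gave -3.81, with a weaker call than without a control. The value was -1.33 on the scale of log2 of FPKM plus 1 in limma, and Cish was called in each of these fits. Socs3, which restrains the G-CSF receptor, fell from 542 to 390 CPM (-0.48, SE 0.07). Socs1 fell by 0.67, with its call lost without shMettl3 replicate 2 (adjusted p = 0.19) and in DESeq2 (adjusted p = 0.0647), and the phosphatase gene Ptpn6 fell by 0.65. Cbl, the ubiquitin ligase of the CSF1 receptor, had 92.6 and 73.0 CPM in the controls against 75.1 and 79.4 CPM, and Adam17, the protease that sheds that receptor, 228 and 191 against 206 and 212 CPM. Neither was called, and for both the controls spanned the shMettl3 libraries. Without control replicate 2, Cbl was called as lower (-0.26, adjusted p = 0.00782, edgeR).

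Genes known to respond to CSF1 mostly fell, 13 of 20 against 2 that rose, with a median of -0.59. Fos, an AP-1 subunit, went from 93.3 to 26.0 CPM, Plau, which encodes urokinase, from 121 to 36.1 CPM (-1.75, SE 0.09), and Bcl2a1b, a survival gene with near-identical copies and counts that were not whole, from 170 to 73.5 CPM. Jun (0.52) and Tnfrsf11a (0.36), which encodes RANK, rose, and with TPM 4 genes rose. Genes known to respond to GM-CSF or STAT5 went in both directions: 10 of 17 fell and 5 rose, with a median of -0.55. Besides Cish, Cd74, the invariant chain of MHC class II, and Ccl22, a chemokine gene, fell by 1.15 and 1.06. Cd86, a costimulatory ligand (2.55), Bcl2l1, which encodes the survival protein BCL-XL (1.06), and Bcl6, a repressor (0.79), rose. Bcl2l1 went from 234 and 241 CPM in the controls to 487 and 501 CPM. 6 genes of this list, among them Socs2, Pparg and Ccl17, were below the filter.

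**Figure D3:**
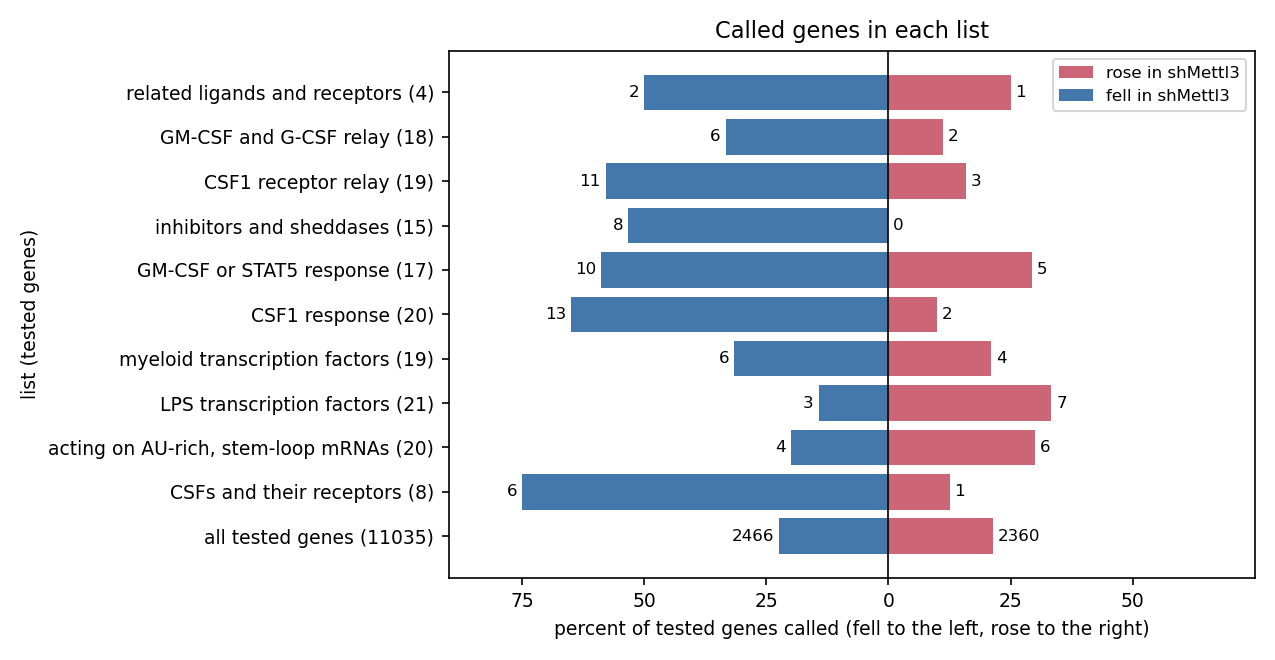
Percent of the tested genes in each list that fell (left) or rose (right) in the shMettl3 libraries, with the number of genes at the end of each bar and the number tested in parentheses. The bottom bars give all tested genes, 2466 lower and 2360 higher.

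Regulators upstream of the 8 genes were mixed. Over all tested genes 43.7% were called, and the total called in each list of regulators was not far above that share. Of 19 transcription factors of the Csf1r locus and of myeloid cells, 6 fell and 4 rose. Tfec, a factor of the MITF family, fell by 2.10, Cebpa, a factor of the myeloid lineage, from 22.8 to 7.13 CPM (-1.67, SE 0.11) and Mitf by 0.47, a call lost with TPM (-0.32, adjusted p = 0.0708, limma). Cebpd rose by 0.91, Fli1 by 0.75 and Ets2 by 0.49. Of 21 factors that act on Csf2 and Csf3 after LPS, 7 rose and 3 fell. The number that rose was 4 without shMettl3 replicate 1, 8 with FPKM, and 10 with library size alone and with TPM. Nfkbiz, which encodes a nuclear IkB protein, rose by 0.79, and Rel, the NF-kB subunit c-Rel, from 15.0 to 22.4 CPM, a call lost without shMettl3 replicate 1. Besides Fos, Nfatc1, a partner of AP-1, fell from 58.2 to 29.1 CPM and Egr1, an immediate early factor, by 0.67. Of 20 genes whose proteins bind AU-rich or stem-loop mRNAs or act with such binders, deadenylase subunits and the kinase gene Mapkapk2 included, 6 rose and 4 fell. Zfp36 rose from 278 to 376 CPM (0.44, SE 0.07) and Rc3h1, which encodes roquin, by 0.62, while Zfp36l2 fell from 148 to 81.2 CPM (-0.87, SE 0.08) and Igf2bp2, a binder of m6A-marked mRNA, by 0.67. Rc3h2 (0.32) and Pabpc1 (-0.25) were called here and lost the call without either shMettl3 library. Rc3h2 also lost it in DESeq2 and without control replicate 2, and Pabpc1 with library size alone, FPKM and TPM. Without shMettl3 replicate 1 the counts were 3 that rose and 2 that fell, and without replicate 2 they were 2 and 2. With library size alone, FPKM and TPM 8 rose and 2 fell, in DESeq2 3 rose and 3 fell, and without control replicate 1 the balance turned, with 5 that rose and 6 that fell.

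Of the other ligands and receptors of these families, 4 of 13 were tested. Sdc1, a syndecan that can bind interleukin-34, fell from 89.5 to 25.5 CPM (-1.81, SE 0.08) and Flt3l, the FLT3 ligand gene, from 8.01 to 4.70 CPM. 1 other, Pdgfrb, rose from 0.271 to 1.03 CPM, a call lost without shMettl3 replicate 1, in DESeq2 and with FPKM plus 1, and Kitl was not called. Il5 had 1 count in 1 library, and Il3, Il3ra and Il5ra were not analysed here.

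The genes whose pattern over the 4 libraries was nearest to each called gene were found by the Euclidean distance of log2 CPM centred on each gene's mean, among tested genes with a mean of at least 10 CPM. With 4 libraries this is a description only. Nearest to Csf1 were LOC101055758, Gm15433 and Parp11 (distances 0.0788 to 0.149), and 9 genes lay within 0.3. For Csf2, 0 genes lay within 0.3, and the nearest were Lcn2, which encodes the siderophore-binding protein lipocalin-2 (0.514), Itgax, the integrin chain CD11c (0.576), and Tarm1 (0.615). Lcn2 had 175 and 405 CPM in the controls and 50.7 and 54.7 CPM after knockdown, and so was also higher in control replicate 2. Cish, which was too low for this ranking, differed by 2.13-fold between the controls, against 2.12-fold for Csf2, and was higher in the same library.

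**Figure D4:**
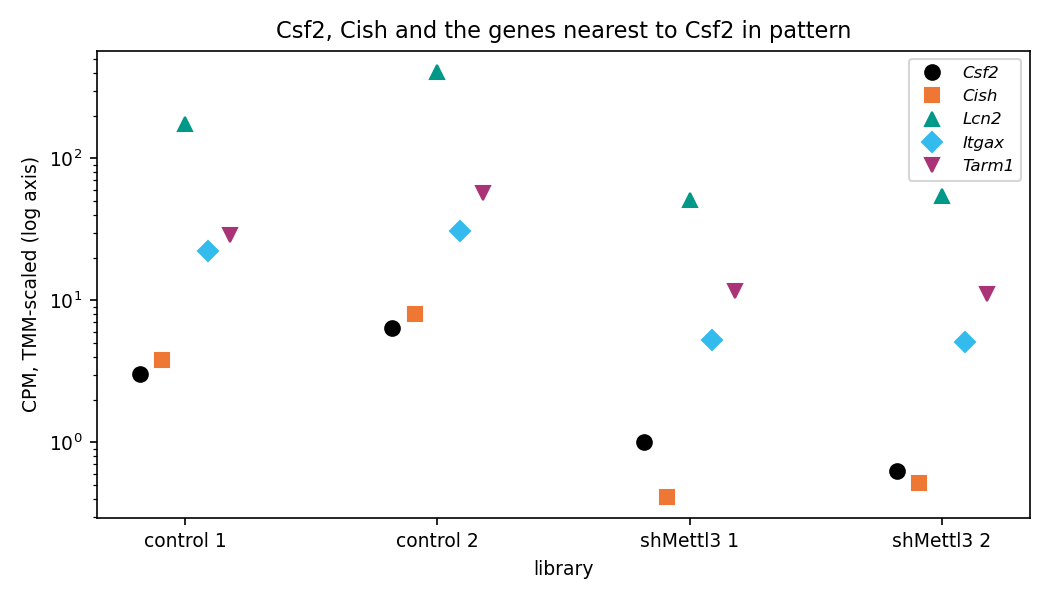
CPM (log axis) of Csf2, of Cish and of the 3 genes nearest to Csf2 in pattern in each of the 4 libraries; each point is 1 library. All 5 genes are highest in control replicate 2 and lower in both shMettl3 libraries than in either control. For Lcn2, Itgax and Tarm1 this follows from how they were picked.

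Nearest to Csf3r were Rxra, Flnc and Lzts2 (0.193 to 0.221), with 9 genes within 0.3. Csf1r had 194 genes within that distance, led by Mcrs1, Panx1 and Card19, and Csf2rb had 229, with Pola2 and Slc43a2 among the nearest. Mrpl24 and Vamp8 were among the nearest to Csf2ra, and Rnf149, Prr12 and Steap3 were nearest to Csf2rb2.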

How the data were processed

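RNA was measured by sequencing in 4 libraries, grouped by their titles. The authors deposited, per the file headers, estimated counts, FPKM and TPM for each gene and library. The expected counts are unnormalized estimates, not whole for 12.5% of genes, as deposited. The submitters' processing notes name RSEM 1.2.12, Bowtie2 2.2.5, HISAT2 2.0.4 and the mm9 genome. The gene annotation and any filters are not stated in the sources used here. Libraries of PCR-amplified poly(A)-primed cDNA were read as single ends, with neither molecular identifiers nor strand marking named, per the labels. The table has 0 columns of other samples.

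Counts were rounded and tested in edgeR 4.0.16 (R 4.3.3) by the quasi-likelihood test with robust fitting and TMM factors. filterByExpr (minimum count 10, minimum total 15) kept 11035 of 14435 genes. Each SE is the log2 fold change divided by the root of its F statistic. Replicates differed beyond sampling noise (chi-square over degrees of freedom 9.86 for controls, 3.61 for shMettl3). Alternatives were library size alone, DESeq2 1.42.0, limma 3.58.1 (voom, and log2 of FPKM or TPM plus 0.1, or FPKM plus 1), other filters, a replicate block, a 1.5-fold threshold, the beta chains summed, and each library left out. The script was tested on simulated data.

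The set and the lists were chosen with earlier results of these data known. Named were the 8 genes, pathway partners fixed by role, the 3 largest rises and falls called in each list at a mean of 5 CPM or more in either group, and the 3 nearest patterns of each called gene. A few genes that this rule names are not reported here. List genes named outside this rule were chosen after their values were seen: Mertk, Lyz2, Cd14, Fcgr3, S100a8, Pparg, Ccl17, Pdgfrb, Kitl and Mapkapk2. Motifs were searched on both strands in promoters and on the sense strand in 1 coding transcript a gene, that with the longest coding part.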

Additional observations from a re-analysis of the deposited data

How the results depend on the processing

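Csf1, Csf2, Csf1r, Csf2rb and Csf3r kept their direction and their call in every alternative in which they were tested (Csf2 has too few counts for the filter on a mean of 5 CPM). Csf2ra was not called with library size alone (-0.14), FPKM plus 0.1 (-0.14), TPM (-0.083) and FPKM plus 1 (-0.14), and spanned -0.275 to -0.208 with 1 library left out. Csf2rb2 was not called with FPKM plus 0.1 (-0.22), TPM (-0.17) and FPKM plus 1 (-0.21), and spanned -0.39 to -0.268. Csf3 spanned -0.15 to 0.28. Of the 8 genes between 5 and 8 were called, against 7. Over all genes 3070 to 5306 were called with 1 library left out, the lowest without shMettl3 replicate 1, and 952 in the test against a 1.5-fold change, against 4826.

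Among pathway genes that were not called, signs turned. With library size, FPKM plus 0.1, TPM and FPKM plus 1, in that order, Adam17 was at 0.093, 0.094, 0.15 and 0.092, Spi1 at 0.034, 0.021, 0.076 and 0.021, Stat5b at 0.043, 0.034, 0.09 and 0.027, and Mettl4 at 0.051, 0.16, 0.22 and 0.14. Cbl was at 0.003 with FPKM plus 0.1, 0.002 with FPKM plus 1 and 0.058 with TPM, where Jak2 was at 0.005 and Stat3 at 0.028. Adam17 was also at 0.006 with a mean of 5 CPM and 0.003 in limma-voom. With 1 library left out Adam17 spanned -0.12 to 0.12, Cbl -0.264 to 0.072, Jak2 -0.288 to 0.033 and Mettl4 -0.105 to 0.006. Cbl and Jak2 were called without control replicate 2.

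The replicate numbers are not said to pair libraries. Deviations of same-numbered libraries correlated at 0.146 across genes, and a replicate block gave 5116 calls and changed no call of the 8 genes (Csf1 1.40, Csf2 -2.48, Csf3 0.07, Csf1r -1.03, Csf2ra -0.24, Csf2rb -0.92, Csf2rb2 -0.33, Csf3r -1.65). Under the block Adam17 was at 0.003, and Sos1 lost its call (adjusted p = 0.0501, edgeR). The cause of these shifts was not tested. Depth limits Csf2, Cish and Il34, with at most 134 counts a library.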
